A study of Sus scrofa with 6 samples.

Results

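The genes described here mark the cells that wrap blood vessels. The set holds 10 symbols: 6 of the smooth muscle contractile apparatus (MYH11, ACTA2, TAGLN, CNN1, SMTN and LMOD1) and 4 of pericytes (RGS5, PDGFRB, NOTCH3 and KCNJ8). A row of the deposited table was taken where its gene name was 1 of these symbols, which found 8 of 10 among 25322 genes. MYH11 was matched by its Ensembl gene ID, which made 9, and LMOD1 was not analysed here. All 9 passed the filter on low counts that left 13209 genes to test.

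The libraries came from longissimus dorsi, the long muscle of the back, of pigs of 2 breeds, with 3 libraries labelled Wei and 3 labelled Yorkshire. Wei pigs had free access to commercial feed and were slaughtered at 90 kg, per the labels. Yorkshire pigs were kept in a like way, and the labels used here give no slaughter weight for them, nor the sex or age of either breed. The labels do not say that the libraries of a breed came from separate animals, so each p-value rests on a spread between libraries that may be technical. The sample titles carry the codes LWH (Yorkshire) and YH (Wei), which the labels do not spell out, and every direction below would turn if the breed labels were exchanged.

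Smooth muscle cells form the contracting layer of arteries, arterioles and veins, and pericytes sit singly along capillaries. Smooth muscle contracts when myosin, switched on by calcium, pulls on actin filaments that carry calponin, transgelin and other binding proteins. Endothelial cells recruit both cell types with platelet-derived growth factor B, read by the receptor PDGFRB, and keep them mature through Jagged1 and NOTCH3. In skeletal muscle both are a small share of a tissue made mostly of muscle fibres, and a bulk library cannot tell fewer cells of a type from less RNA per cell.

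The 6 libraries held 15285197 to 27096747 counts. The median log2 fold change over all tested genes was -0.02, and the edgeR quasi-likelihood test called 671 genes, 5.08% of those tested, at a Benjamini-Hochberg adjusted p under 0.05. Of these, 361 (2.73%) were higher and 310 (2.35%) were lower in Wei. Marker sums set Yorkshire replicate 3 apart: its macrophage markers summed to 174.8 CPM (counts scaled to a common library size, after TMM), against 42.2 to 54.0 CPM in the other 5 libraries. PDGFRB and NOTCH3 were also highest in that library, and without it their log2 fold changes were -0.51 and -0.57, against -0.55 and -0.66 with it.

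None of the 9 genes passed the adjusted threshold in edgeR or limma voom, and 1 (SMTN) did in DESeq2. At an unadjusted p under 0.05 in edgeR, SMTN was higher in Wei and CNN1, RGS5, PDGFRB and NOTCH3 were lower, 5 of 9, where 23.3% of all tested genes passed (11.4% higher and 11.8% lower). The 3 Wei libraries did not overlap the 3 Yorkshire libraries in 4 of 9 genes, against 29.6% of all genes: SMTN lay above in every Wei library (14.3% of all genes did so) and RGS5, PDGFRB and NOTCH3 lay below (15.3% of all genes). The median log2 fold change was 0.53 over the 5 contractile genes and -0.55 over the 4 pericyte genes, and -0.12 over all 9. Without Wei replicate 3 these medians were -0.20, -0.64 and -0.48, so the contractile median turned sign with that library. The median over all genes of the set also turned to 0.03 without Yorkshire replicate 1, and was -0.28 without Yorkshire replicate 2, -0.21 without Wei replicate 1, -0.19 without Wei replicate 2 and -0.33 without the row matched to MYH11 by gene ID.

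**Figure D1:**
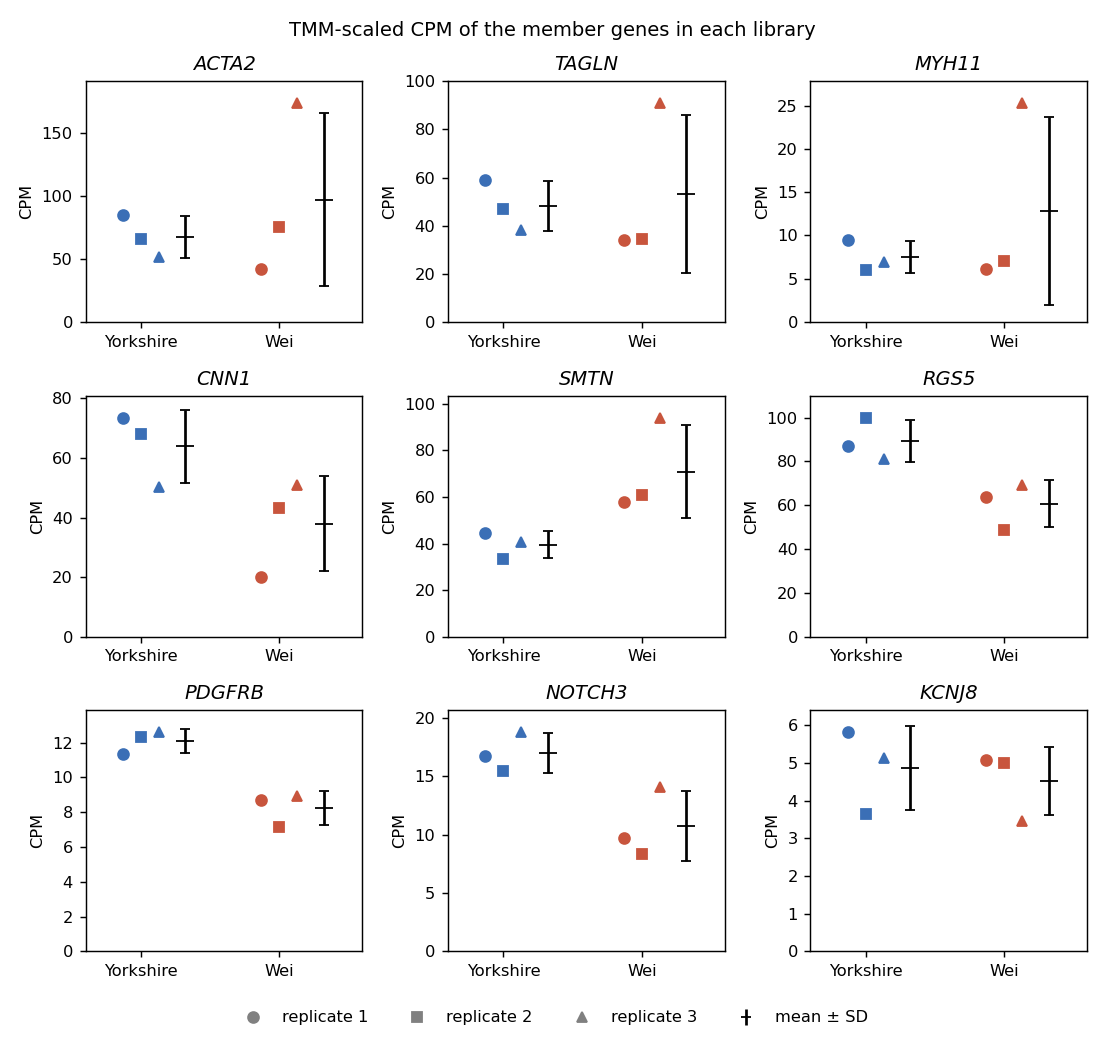
Level of each gene in each library, in CPM after TMM scaling on a linear axis from 0; circles, squares and triangles are replicates 1, 2 and 3, and the bar is the mean with its SD over 3 libraries. Wei replicate 3 (triangle) is the highest library for ACTA2, TAGLN, MYH11 and SMTN, and the Wei libraries lie below all Yorkshire libraries for RGS5, PDGFRB and NOTCH3.

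ACTA2, the smooth muscle alpha-actin that builds the thin filaments, lies on chromosome 14 at 109852735-109871621 (Sscrofa10.2, the build of the deposited table, as for all positions here). It read 85.2, 66.0 and 51.5 CPM in Yorkshire replicates 1 to 3 and 42.4, 75.3 and 174 CPM in Wei replicates 1 to 3. The breeds overlapped, with both the lowest and the highest library among the Wei. The means were 97.2 ± 68.3 CPM in Wei and 67.5 ± 16.9 CPM in Yorkshire (SD, n = 3 each), and the log2 fold change was 0.53 ± 0.44 (SE; edgeR, Benjamini-Hochberg adjusted p = 0.508). Its 95% interval ran from -0.49 to 1.54, so neither a small fall nor a rise of over 2-fold was outside it. Without Wei replicate 3 the log2 fold change was -0.20.

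MYH11, the smooth muscle myosin heavy chain that forms the thick filaments, is the most restricted marker of mature smooth muscle in the set. Its row carries no symbol in the table and lies on the unplaced scaffold GL893077.1 at 10937-50415, with gene ID ENSSSCG00000000146. It read 9.54, 6.03 and 6.89 CPM in Yorkshire replicates 1 to 3 and 6.09, 7.09 and 25.3 CPM in the Wei replicates in the same order. Wei replicate 3 stood alone, and the other 5 libraries lay within 6.03 to 9.54 CPM. The log2 fold change of 0.78 ± 0.51 (SE; edgeR, Benjamini-Hochberg adjusted p = 0.386) became -0.19 without that library.

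TAGLN, transgelin or SM22-alpha, binds actin filaments and is among the most abundant smooth muscle transcripts (chromosome 9, 49631072-49636680). Levels were 58.9, 47.1 and 38.1 CPM in Yorkshire replicates 1 to 3 and 34.2, 34.6 and 91.0 CPM in Wei replicates 1 to 3. Wei replicates 1 and 2 thus lay under every Yorkshire library and replicate 3 above them all. The fitted log2 fold change was 0.15 ± 0.37 (SE; edgeR, Benjamini-Hochberg adjusted p = 0.845), and -0.48 without Wei replicate 3.

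CNN1, calponin 1, binds actin and slows the myosin ATPase (chromosome 2, 70536387-70544292). It read 73.5, 68.1 and 50.1 CPM in Yorkshire and 19.997, 43.0 and 50.9 CPM in Wei, replicates 1 to 3 in each. Only Wei replicate 3 reached the Yorkshire range, and there it only just passed the lowest Yorkshire library. The means were 38.0 ± 16.1 CPM in Wei and 63.9 ± 12.2 CPM in Yorkshire (SD, n = 3 each). Its log2 fold change was -0.75 ± 0.31 (SE), with a 95% interval from -1.46 to -0.04 and a Benjamini-Hochberg adjusted p of 0.196 in edgeR. Alone among the contractile genes, it was fitted as lower in Wei with and without each library in turn, from -1.02 to -0.44.

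SMTN, smoothelin, is a cytoskeletal protein of contractile smooth muscle (chromosome 14, 50990976-51014415). Its levels were 44.7, 33.2 and 40.7 CPM in Yorkshire replicates 1 to 3 and 58.0, 60.6 and 94.1 CPM in Wei replicates 1 to 3. Every Wei library lay above every Yorkshire library, with Wei replicate 3 highest. Means of 70.9 ± 20.1 CPM in Wei and 39.5 ± 5.83 CPM in Yorkshire (SD, n = 3 each) gave a log2 fold change of 0.84 ± 0.21 (SE). The 95% interval was 0.36 to 1.32, and the adjusted p of 0.0571 (edgeR, Benjamini-Hochberg) missed the threshold. SMTN passed with library size alone as scaling, without the count filter and in DESeq2, 3 of the 8 alternatives that kept all libraries, where its Benjamini-Hochberg adjusted p ranged from 0.00473 to 0.0622 over edgeR, limma and DESeq2. It passed in 0 of the 6 edgeR fits that left out 1 library, where the adjusted p was 0.0712 to 0.184 and the log2 fold change 0.59 to 0.98.

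RGS5, a regulator of G protein signalling that speeds the switching off of G proteins, is a standard pericyte marker (chromosome 4, 94999826-95053682). It read 87.2, 99.998 and 80.9 CPM in Yorkshire replicates 1 to 3 and 63.9, 48.6 and 69.3 CPM in Wei replicates 1 to 3. The breeds did not overlap, and Wei replicate 3, high for ACTA2, MYH11 and TAGLN, stayed under the lowest Yorkshire library. Means were 60.6 ± 10.7 CPM in Wei and 89.4 ± 9.74 CPM in Yorkshire (SD, n = 3 each). The log2 fold change was -0.56 ± 0.16 (SE; 95% interval -0.93 to -0.19; edgeR, Benjamini-Hochberg adjusted p = 0.0858).

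PDGFRB, the receptor tyrosine kinase that answers platelet-derived growth factor B, lies on chromosome 2 at 157910126-158077825. Levels were 11.3, 12.3 and 12.6 CPM in Yorkshire and 8.70, 7.15 and 8.96 CPM in Wei, replicates 1 to 3 in each. The libraries of each breed lay close together, and none overlapped with the other breed. With means of 8.27 ± 0.976 CPM in Wei and 12.1 ± 0.670 CPM in Yorkshire (SD, n = 3 each), the log2 fold change was -0.55 ± 0.16 (SE; 95% interval -0.90 to -0.19; edgeR, Benjamini-Hochberg adjusted p = 0.0823). The span of this gene model overlaps 5 other rows with 1224 counts in all, and how reads in the overlap were assigned is not given in the sources used here. A second row, which carries no symbol but has a gene ID of PDGFRB, lies 35584 bases further on, at 158113410-158121876. Its levels were 11.4 ± 1.85 CPM in Wei and 14.8 ± 0.636 CPM in Yorkshire (SD, n = 3 each), again without overlap, and its log2 fold change was -0.37 ± 0.16 (SE; edgeR, Benjamini-Hochberg adjusted p = 0.203).

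NOTCH3, the Notch receptor of mural cells, lies on chromosome 2 at 61892253-61908778. It read 16.7, 15.4 and 18.8 CPM in Yorkshire replicates 1 to 3 and 9.76, 8.39 and 14.1 CPM in Wei replicates 1 to 3. No Wei library reached the Yorkshire range, though replicate 3 came near it. Means of 10.7 ± 2.98 CPM in Wei and 17.0 ± 1.699 CPM in Yorkshire (SD, n = 3 each) gave a log2 fold change of -0.66 ± 0.21 (SE; 95% interval -1.13 to -0.18; edgeR, Benjamini-Hochberg adjusted p = 0.105). A second row with a gene ID of NOTCH3, at 61948629-61963162, read -0.56 ± 0.24 (SE; edgeR, Benjamini-Hochberg adjusted p = 0.211) on the log2 scale with overlapping breeds, and passed the threshold only without Wei replicate 3 (edgeR adjusted p = 0.0414).

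KCNJ8 encodes Kir6.1, the pore of the ATP-sensitive potassium channel of vascular smooth muscle and pericytes (chromosome 5, 54978968-54986811). It read 5.82, 3.65 and 5.14 CPM in Yorkshire and 5.09, 5.01 and 3.47 CPM in Wei, replicates 1 to 3 in each. The breeds overlapped, and the highest and lowest libraries were 1 of each. Its log2 fold change was -0.12 ± 0.25 (SE; 95% interval -0.68 to 0.45; edgeR, Benjamini-Hochberg adjusted p = 0.815), and its sign turned without Yorkshire replicate 1 or Wei replicate 3. This was the shallowest member, with 66 counts in its lowest library and a counting error there of 12.3%.

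**Figure D2:**
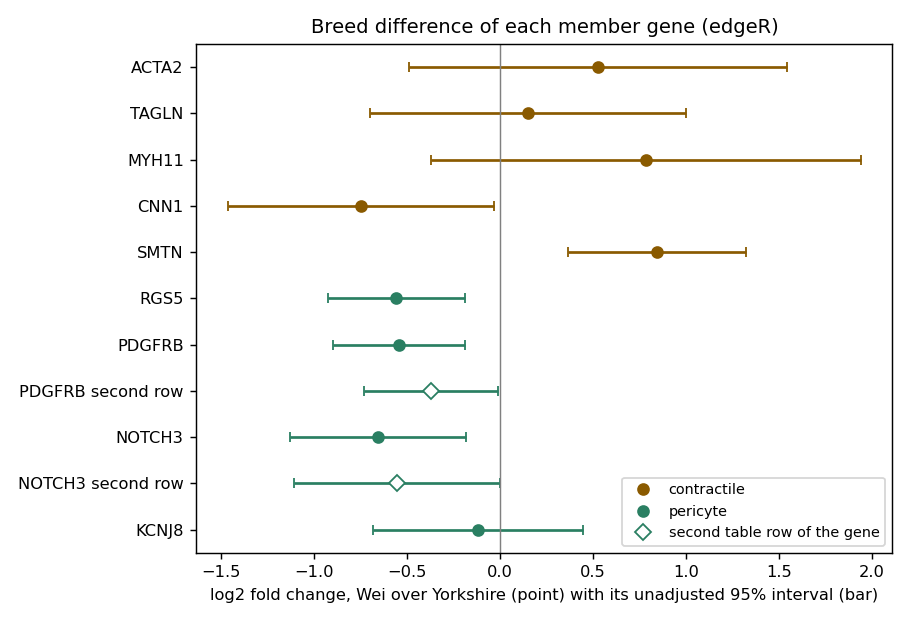
Log2 fold change of Wei over Yorkshire for each gene (points) with the unadjusted 95% interval of the edgeR fit (bars); brown marks contractile genes, green pericyte genes, and open diamonds the second rows of PDGFRB and NOTCH3. The intervals of SMTN, CNN1, RGS5, PDGFRB and NOTCH3 leave out 0, while those of ACTA2, TAGLN, MYH11 and KCNJ8 span it.

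Compared per length, as the deposited FPKM values allow, the members covered a wide range of levels. In Yorkshire, RGS5 (44.0 ± 4.82 FPKM), ACTA2 (40.9 ± 7.71), TAGLN (40.4 ± 6.27) and CNN1 (35.3 ± 4.97) came first, and the ranges of mean ± SD of neighbours in that order overlapped. SMTN followed at 11.9 ± 1.62 FPKM, and PDGFRB, MYH11, NOTCH3 and KCNJ8 lay together between 2.61 and 3.12 FPKM. In Wei the order was ACTA2 (56.2 ± 35.01 FPKM), TAGLN (43.2 ± 22.7), RGS5 (29.4 ± 5.79), SMTN (20.9 ± 4.16), CNN1 (20.3 ± 7.07) and MYH11 (5.07 ± 3.87), with KCNJ8, PDGFRB and NOTCH3 between 1.76 and 2.43 FPKM (SD, n = 3 each throughout). SMTN and CNN1, well apart in Yorkshire, thus stood side by side in Wei.

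Ratios of FPKM within a library that involve CNN1 show the same reordering without any scaling between libraries. CNN1 over ACTA2 was 0.785, 0.938 and 0.886 in the Yorkshire libraries, replicates 1 to 3, against 0.429, 0.519 and 0.266 in the Wei libraries. All 3 Wei libraries lay below all Yorkshire libraries, Wei replicate 3 lowest. SMTN over CNN1 was 0.331, 0.265 and 0.442 in Yorkshire and 1.58, 0.767 and 1.01 in Wei. For this ratio every Wei library lay above every Yorkshire library, and Wei replicate 1, low in CNN1, was the highest. Contractile ratios without CNN1 overlapped between the breeds. SMTN over ACTA2 was 0.448 ± 0.209 in Wei and 0.300 ± 0.079 in Yorkshire. TAGLN over ACTA2 was 0.827 ± 0.256 and 0.992 ± 0.034, and MYH11 over ACTA2 was 0.088 ± 0.020 and 0.077 ± 0.015, in the same order. Ratios among pericyte genes overlapped too: RGS5 over PDGFRB was 13.9 ± 0.900 in Wei and 14.2 ± 1.69 in Yorkshire, and PDGFRB over NOTCH3 was 1.22 ± 0.211 and 1.097 ± 0.111 (SD, n = 3 each throughout).

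Most contractile genes varied more between Wei libraries than the typical tested gene. Within Wei the SD of log2 CPM was 1.12 for MYH11, 1.02 for ACTA2, 0.81 for TAGLN, 0.72 for CNN1 and 0.38 for SMTN, against a median of 0.24 over all tested genes. Within Yorkshire these SDs were 0.22 for SMTN and 0.29 to 0.36 for the other contractile genes, against a median of 0.21. Among the pericyte genes the SDs in Wei were 0.38 for NOTCH3, 0.31 for KCNJ8, 0.27 for RGS5 and 0.17 for PDGFRB. In Yorkshire they were 0.14, 0.34, 0.16 and 0.08 in the same order, so NOTCH3 in Wei varied about as much as SMTN, and KCNJ8 in Yorkshire about as much as ACTA2 and MYH11.

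Wei replicate 3 was the high library for ACTA2, TAGLN and MYH11, while for CNN1 Wei replicate 1 was the low one. Relative to the mean of the other 5 libraries Wei replicate 3 was higher by 1.83 for MYH11, 1.48 for ACTA2, 1.13 for TAGLN and 1.02 for SMTN on the log2 scale, each at or above the 97.8th percentile of all tested genes. CNN1 (0.13), NOTCH3 (0.09), RGS5 (-0.09), PDGFRB (-0.19) and KCNJ8 (-0.48) did not share the excess. It was the highest library for 4 of 5 contractile and 0 of 4 pericyte genes, and for 15.3% of all tested genes. Among 23 other tested smooth muscle contractile genes it was highest for 6, among them MRVI1, MYL9 and CSRP1, whose excesses were 1.11, 1.05 and 1.02. ACTG2, the actin of visceral smooth muscle, had an excess of 3.11, with 5.63 CPM in Wei replicate 3 and 0.118 to 1.11 CPM in the other 5 libraries.

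**Figure D3:**
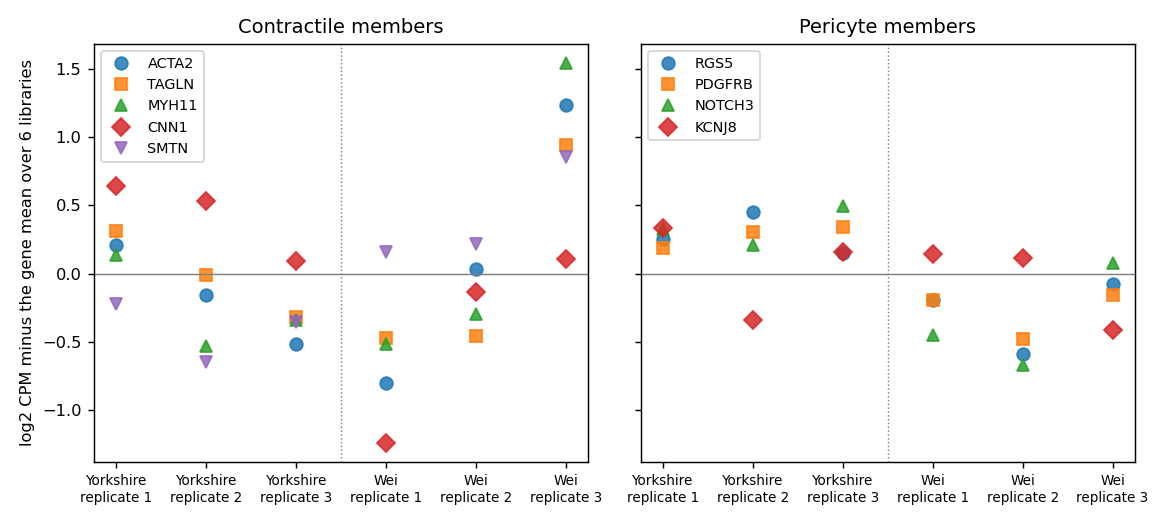
Log2 CPM of each gene minus its mean over the 6 libraries, contractile genes on the left and pericyte genes on the right, with Yorkshire libraries left of the dotted line and Wei libraries right of it. ACTA2, TAGLN, MYH11 and SMTN peak together in Wei replicate 3, whereas RGS5, PDGFRB and NOTCH3 lie above their mean in every Yorkshire library and KCNJ8 does not.

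Likeness of profile was measured as the root mean square difference of centred log2 CPM over the 6 libraries, a description with no test. RGS5 and PDGFRB were the closest pair of members (0.12), followed by PDGFRB and NOTCH3 (0.19), RGS5 and NOTCH3 (0.21) and ACTA2 and MYH11 (0.27). CNN1 lay nearest to NOTCH3 (0.46) and farthest from SMTN (0.91), so calponin 1 was closer to a pericyte receptor than to any other contractile gene. Of 8853 candidates outside the set, the 5 genes nearest to the mean contractile profile were ACPT (0.12), LXN (0.17), MYL9 (0.18), CSRP1 (0.18) and LARP1B (0.18). MYL9 is the regulatory light chain of smooth muscle myosin and CSRP1 a LIM protein of smooth muscle. Among those nearest to the mean pericyte profile were CINP (0.05), RFXANK (0.05), PECAM1 (0.06) and KPNA5 (0.06).

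PECAM1, the adhesion molecule CD31 of endothelial cells, read 111, 104 and 103 CPM in Yorkshire replicates 1 to 3 and 84.96, 71.2 and 88.3 CPM in the Wei replicates. It was picked for this pattern, so these levels carry no test. The whole endothelial marker list did not share the pattern. Of 13 tested genes 0 passed in edgeR, DESeq2 or limma voom, and the median log2 fold change was -0.02. At an unadjusted p under 0.05 in edgeR 1 was lower, where 11.8% of all tested genes were. The sum over the list was 250.4 to 289 CPM in Yorkshire and 206 to 294 CPM in Wei.

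Summed over the 5 contractile genes, the libraries held 272, 220.4 and 187 CPM in Yorkshire replicates 1 to 3 and 161, 221 and 435 CPM in Wei replicates 1 to 3. The Wei libraries thus spanned the whole Yorkshire range and beyond on both sides. Summed over the 4 pericyte genes they held 121, 131 and 117 CPM in Yorkshire and 87.4, 69.2 and 95.8 CPM in Wei, with no overlap. RGS5 makes up most of that sum. Contractile over pericyte sums were 2.24, 1.68 and 1.595 in Yorkshire and 1.84, 3.19 and 4.54 in Wei, which overlapped through Wei replicate 1.

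Set against the endothelial marker sum of the same library, the pericyte sum was 0.418, 0.525 and 0.437 in the Yorkshire libraries, replicates 1 to 3, against 0.307, 0.335 and 0.326 in the Wei libraries. The breeds did not overlap on this ratio. It reuses the pericyte sum given above, so it is not a separate result. PECAM1 was the most abundant of the endothelial markers, at 105.9 CPM in Yorkshire and 81.5 CPM in Wei. Fibroblast markers also stood lower in Wei. All 12 tested had a negative log2 fold change, as did 52.2% of all tested genes, and their median was -0.68. In edgeR and limma voom 1 of them (DPT) passed, and in DESeq2 4 did. Over all genes edgeR called 2.35% lower, and DESeq2 called 559 lower of the 18536 given a p-value. The fibroblast marker sum was 730.1 to 1848 CPM in Wei and 2324 to 3753 CPM in Yorkshire. Set against that sum the pericyte genes overlapped, at 0.0338 to 0.0521 in Yorkshire and 0.0374 to 0.120 in Wei. Other marker lists differed between the breeds to varying degrees. All 9 tested macrophage markers (median -0.87), 5 satellite cell markers (-0.46) and 3 lymphocyte markers (-1.47) had negative log2 fold changes. None of these passed in edgeR or limma voom, and DESeq2 called 1 macrophage and 2 lymphocyte markers as lower. Where 11.8% of all tested genes were lower at an unadjusted p under 0.05 in edgeR, 1 macrophage, 1 satellite cell and 3 lymphocyte markers were. Their sums in Wei and Yorkshire were 44.1 to 54.0 and 42.2 to 174.8 CPM for macrophages, 32.8 to 44.2 and 42.1 to 53.6 CPM for satellite cells, and 6.63 to 7.49 and 9.38 to 39.9 CPM for lymphocytes. The macrophage and satellite cell sums thus overlapped between the breeds, and only Yorkshire replicate 3 lay above the Wei range for macrophages. Adipocyte markers summed to 424.6 to 463.9 CPM in Wei and 262 to 315 CPM in Yorkshire. Of 4 tested, 1 (PLIN4) was called higher in edgeR, where 2.73% of all tested genes were, and the median was -0.04. The part of all these marker levels in the pericyte result was not tested. No marker found in these lists was at 0 in all libraries.

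**Figure D4:**
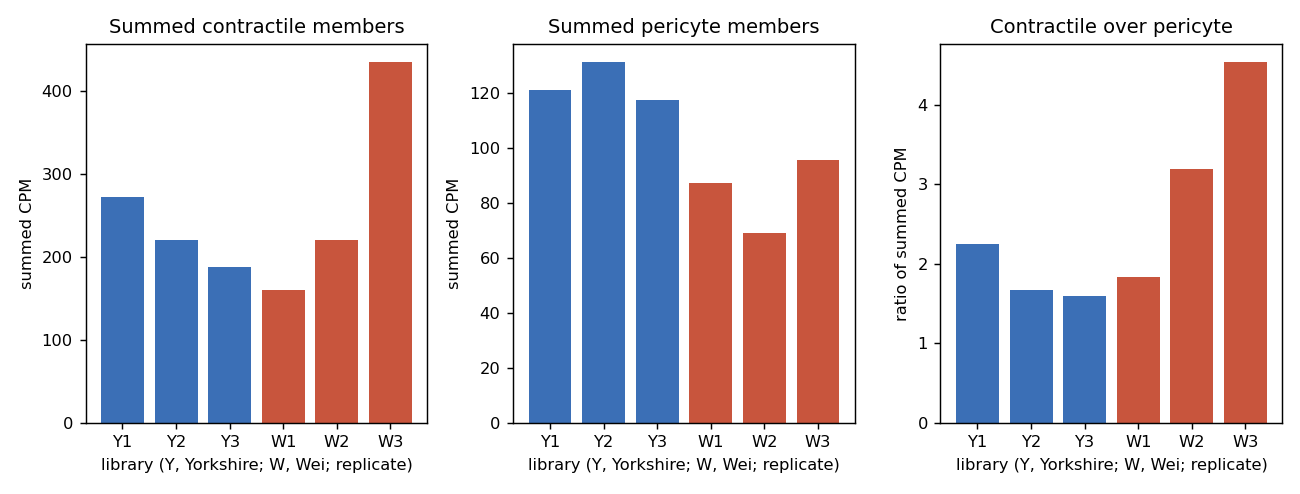
Sums over the contractile genes and over the pericyte genes in CPM, and their ratio, in each of the 6 libraries, on linear axes from 0. The pericyte sums of Wei (69.2 to 95.8 CPM) lie below those of Yorkshire (117 to 131 CPM), while the contractile sum is highest in Wei replicate 3 (435 CPM) and lowest in Wei replicate 1 (161 CPM).

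Paralogues were read beside the members, since several of these families also have forms made by muscle fibres or by non-muscle cells. Of 22 tested paralogues, 1 rose and 1 fell in Wei, where 2.73% of all tested genes were called higher and 2.35% lower. SMTNL2, a smoothelin-like protein, read 92.7, 103 and 86.3 CPM in Yorkshire replicates 1 to 3 and 249.6, 185 and 228 CPM in the Wei replicates. It rose by 1.23 ± 0.15 (SE) on the log2 scale (edgeR, Benjamini-Hochberg adjusted p = 0.00906) and passed in all 8 alternatives that kept all libraries and in all 6 fits that left 1 out. TAGLN2, the transgelin of non-muscle cells, fell from 26.5 ± 3.31 to 16.4 ± 2.19 CPM (SD, n = 3 each), a log2 fold change of -0.69 ± 0.16 (SE; edgeR, Benjamini-Hochberg adjusted p = 0.0451). It missed the threshold with library size alone (edgeR adjusted p = 0.0651) and in all 6 fits that left out 1 library.

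The other calponins and actins did not pass. CNN2 (-0.96 ± 0.24; edgeR, Benjamini-Hochberg adjusted p = 0.0582) and CNN3 (-0.42 ± 0.17; adjusted p = 0.180) were fitted below 0, as CNN1 was. Their Wei libraries lay below their Yorkshire libraries, while those of CNN1 overlapped. Of the 22 tested paralogues, 4 lay wholly above in Wei and 5 wholly below, where 14.3% and 15.3% of all tested genes did. ACTA1, the actin of skeletal muscle fibres, was fitted at -0.39 ± 0.34 (edgeR, Benjamini-Hochberg adjusted p = 0.521). Its FPKM was 559 to 1664 times that of ACTA2, and reads of near-identical actin stretches could be shared between both rows in a way the sources used here do not describe. ACTC1, the cardiac actin that developing muscle also makes, read 34.9, 38.8 and 34.8 CPM in Yorkshire and 1.89, 5.59 and 15.3 CPM in Wei (log2 fold change -2.23 ± 0.57; edgeR, Benjamini-Hochberg adjusted p = 0.0612). ACTB and ACTG1, the actins of all cells, were at 0.07 ± 0.19 and 0.24 ± 0.19, ACTG2 at 1.78 ± 0.95 and TAGLN3 at -0.60 ± 0.30 (SE). The non-muscle myosins MYH9 (-0.25 ± 0.16), MYH10 (1.07 ± 0.29; edgeR, Benjamini-Hochberg adjusted p = 0.0734) and MYH14 (0.45 ± 0.14; adjusted p = 0.101) and the fibre leiomodins LMOD2 (0.20 ± 0.38) and LMOD3 (0.12 ± 0.20) completed the contractile families (SE in each case).

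In the families of the pericyte genes no paralogue passed in edgeR, and KCNJ11 alone was at an unadjusted p under 0.05. KCNJ11, the Kir6.2 channel pore of muscle fibres, was fitted at 0.45 ± 0.14 (SE; edgeR, Benjamini-Hochberg adjusted p = 0.108). Every Wei library lay above every Yorkshire library, as for 14.3% of all tested genes, unlike KCNJ8. ABCC9, whose product SUR2 pairs with either pore, was fitted at 0.60 ± 0.20 (SE; edgeR, Benjamini-Hochberg adjusted p = 0.118). PDGFRA, the sister receptor found on fibroblasts, was at -0.73 ± 0.34, NOTCH2 at -0.15 ± 0.17 and NOTCH4 at -0.14 ± 0.16, and RGS2, RGS3 and RGS4 lay between -0.20 and 0.29 (SE).

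The ligands and partners of the pericyte receptors were read against the same background of 2.73% higher and 2.35% lower calls. Of 6 tested genes of platelet-derived growth factor ligands and receptors 1 rose, 0 fell, and the median was -0.63. The list holds PDGFRA and the receptor-like PDGFRL, so this is not a median of the ligands alone. PDGFC, a ligand of PDGFRA that needs cleavage, rose from 10.8 ± 2.56 to 19.8 ± 1.13 CPM (SD, n = 3 each; log2 fold change 0.89 ± 0.18 SE; edgeR, Benjamini-Hochberg adjusted p = 0.0363). PDGFB, the ligand of PDGFRB, read 3.79, 4.92 and 2.62 CPM in Yorkshire and 1.89, 2.41 and 4.26 CPM in Wei, with overlap (-0.38 ± 0.36 SE; edgeR, Benjamini-Hochberg adjusted p = 0.548). Among 18 Notch genes 0 rose, 1 fell and the median was -0.22, with 4 of them above 0, up to 0.40. At an unadjusted p under 0.05 in edgeR 0 were higher and 3 lower, where 11.4% and 11.8% of all tested genes were. JAG1, the ligand of NOTCH3 on the vessel wall, read 28.6, 25.3 and 31.4 CPM in Yorkshire and 15.8, 18.3 and 20.5 CPM in Wei, and fell by 0.65 ± 0.15 on the log2 scale (edgeR, Benjamini-Hochberg adjusted p = 0.0485). HEYL, a Notch target of mural cells, was at -0.66 ± 0.19 (SE; edgeR, Benjamini-Hochberg adjusted p = 0.0837), and RBPJ, the DNA-binding partner of cleaved Notch, at -0.51 ± 0.15 (SE; adjusted p = 0.0846). Both were picked from the list after their values were seen. PDGFC and JAG1 each lost their call with library size alone as scaling (edgeR, Benjamini-Hochberg adjusted p = 0.0564 and 0.0598) and in all 6 fits that left out 1 library. Without Wei replicate 2, 1 other gene of the platelet-derived growth factor list was called in edgeR, as lower in Wei.

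Of 21 other tested pericyte genes 0 rose and 2 fell, and 7 were lower and 1 higher at an unadjusted p under 0.05 in edgeR. The median log2 fold change was -0.56, with 7 of the 21 fitted above 0. Over all tested genes 2.73% were called higher and 2.35% lower, and 11.4% and 11.8% were so at the unadjusted p. CSPG4, the NG2 proteoglycan on the pericyte surface, read 4.77, 4.59 and 5.10 CPM in Yorkshire and 2.25, 2.08 and 3.03 CPM in Wei (-0.97 ± 0.22 SE; edgeR, Benjamini-Hochberg adjusted p = 0.0453). ANGPT1, the angiopoietin that mural cells supply to endothelial TEK, fell from 2.44 ± 0.153 to 0.925 ± 0.341 CPM (SD, n = 3 each; -1.38 ± 0.32 SE; edgeR, Benjamini-Hochberg adjusted p = 0.0487). Neither gene passed in any of the 6 fits that left out 1 library, and CSPG4 also missed the threshold with library size alone (edgeR, Benjamini-Hochberg adjusted p = 0.0537). Without Wei replicate 2, 1 other gene of this list was called in edgeR, and it was higher in Wei.

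The other smooth muscle lists were mixed. Over all tested genes 2.73% were called higher and 2.35% lower. Of 23 other contractile genes 2 rose and 0 fell, with a median of 0.12. PDLIM3, an alpha-actinin partner that skeletal muscle fibres also make at the Z-disc, rose by 1.23 ± 0.29 (SE; edgeR, Benjamini-Hochberg adjusted p = 0.0486) and passed in 1 of the 6 fits that left out 1 library. Of 18 signalling and channel genes 0 rose and 1 fell: GUCY1B3, the beta subunit of the nitric oxide receptor guanylate cyclase, went from 12.0 ± 0.573 to 6.82 ± 1.09 CPM (SD, n = 3 each; -0.81 ± 0.17 SE; edgeR, Benjamini-Hochberg adjusted p = 0.0361). Its partner GUCY1A3 was at -0.82 ± 0.21 (SE; edgeR, Benjamini-Hochberg adjusted p = 0.0627). GUCY1B3 kept its call in 1 of the 6 fits that left out 1 library.

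In the 3 remaining lists 0 genes passed in edgeR and limma voom. DESeq2 called 2 genes of the TGF-beta arm list as lower and 0 in the other lists. Over all genes it called 559 as lower, of 18536 with a p-value. The 18 genes of myocardin and SRF control, the transcription factors that switch on contractile genes, had a median log2 fold change of -0.06. At an unadjusted p under 0.05 in edgeR 4 were higher and 2 lower, where 11.4% and 11.8% of all tested genes were. SRF itself was at -0.14 (edgeR, Benjamini-Hochberg adjusted p = 0.667) and MEF2C at -0.63 (edgeR, Benjamini-Hochberg adjusted p = 0.192). The TGF-beta arm, which drives mural cell maturation, was read in a list of 19 genes. That list also holds S1PR1, S1PR2, S1PR3, ANGPT2, TEK and TIE1, which are not TGF-beta genes. Its median was -0.32, with 0 higher and 3 lower at that unadjusted p. Of its named genes SMAD3 was at -0.74 (edgeR, Benjamini-Hochberg adjusted p = 0.106) and SMAD4 at -0.04. All 14 vessel wall matrix genes were fitted below 0, as were 52.2% of all tested genes. The median of the 14 was -0.42, and 1 of them was at an unadjusted p under 0.05 in edgeR. MGP, matrix Gla protein, was at -0.93 (edgeR, Benjamini-Hochberg adjusted p = 0.259) and FBN1, fibrillin 1, at -0.37 (edgeR, Benjamini-Hochberg adjusted p = 0.520).

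**Figure D5:**
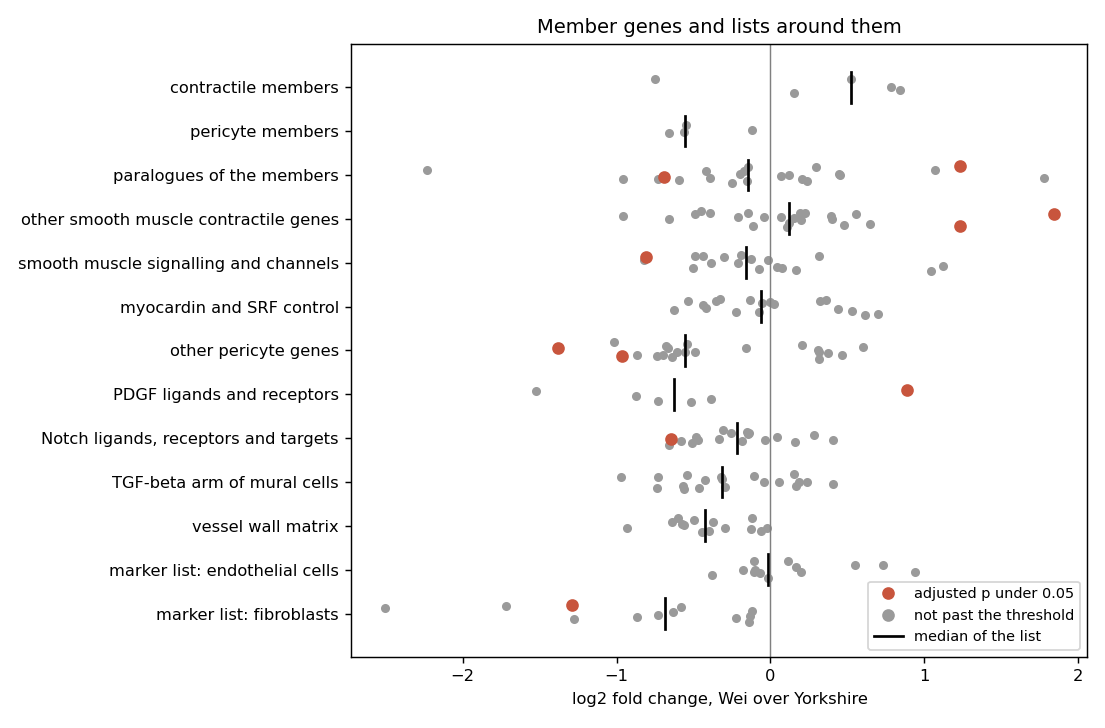
Log2 fold change of Wei over Yorkshire for every tested gene of the members, their related lists and the endothelial and fibroblast marker lists; red points passed an adjusted p of 0.05 in edgeR, grey points did not, and the black mark is the list median. The medians run from 0.53 for the contractile members and 0.12 for the other contractile genes to -0.55 for the pericyte members and -0.56 for the other pericyte genes; without Wei replicate 3 the contractile median is -0.20 and the pericyte median -0.64.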

How the data were processed

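Total RNA of longissimus dorsi was made into libraries with an Illumina TruSeq RNA kit, per the labels' protocols. CASAVA 1.7, TopHat2 2.0.9 and edgeR appear in the submitters' processing notes, with the build Sscrofa10.2 and no roles. Which counter, annotation release and strand setting were used is not given in the sources used here. The authors deposited raw counts and FPKM per gene and library, per the file headers. All tests used the deposited counts, and the deposited FPKM served only to compare levels between genes. Libraries were grouped by the breed label.

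The filter was filterByExpr with a minimum count of 10. TMM scaling and the quasi-likelihood fit of breed alone (glmQLFit, glmQLFTest) were done in edgeR 4.0.16 under R 4.3.3, with Benjamini-Hochberg adjustment over 13209 genes and a threshold of 0.05. The fold change is Wei over Yorkshire, and its SE is the size of the unshrunken log2 fold change divided by the square root of F. Alternatives used limma 3.58.1 (voom) and DESeq2 1.42.0. Profiles are log2 CPM with a prior count of 2. Counts were simulated for these 13209 genes with 1 dispersion common to all, a biological coefficient of variation of 21.8%. On them the procedure called 54.5% of the genes given a 2-fold change and 100% of those given a 4-fold change, with 2.56% of calls false. Genes with a wider spread, such as ACTA2, TAGLN, MYH11 and CNN1 in Wei, were not simulated, so these shares do not apply to them. Every pair of libraries differed by more than sampling noise, with a chi-square of 26.3 or more per degree of freedom. Figures were drawn with matplotlib 3.10.9.

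The members and lists were chosen with earlier results of these data known. Named genes were all members and their paralogues; from each list the genes with an adjusted p under 0.05 (at most 4), or else the 2 with the highest mean CPM; and the 5 genes nearest to each mean profile. GUCY1A3, HEYL, RBPJ, ABCC9, PDGFB, MRVI1, DPT, PLIN4, PRKCE and PLCB1 fall outside that rule and were named after their values were seen. Of 9160 rows with no symbol in the table, 1774 were given one by gene ID. LMOD1 was not analysed here, and a few genes selected by this rule are left out of the text. Reads where gene models overlap, PDGFRB and NOTCH3 included, cannot be assigned with certainty on this basis.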

Additional observations from a re-analysis of the deposited data

How the results depend on the processing

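With 3 libraries per breed, differences near 2-fold were often missed in simulation, so a missed threshold here does not show equal levels. That simulation gave all genes 1 common dispersion, so it does not say how often changes in ACTA2, TAGLN, MYH11 or CNN1 would be missed. Of the 9 members, 1 (SMTN) passed with library size alone as scaling, without the count filter (1) and in DESeq2 (1), 3 passed at an adjusted p under 0.1 and 5 at an unadjusted p under 0.05. Over all genes 1274 were called by DESeq2, which gave a p-value to 18536 genes where edgeR tested 13209. In edgeR 1469 passed at an adjusted p under 0.1, 3075 (23.3%) at an unadjusted p under 0.05 and 60 to 394 when 1 library was left out. Of the 154 genes of the related lists 9 were called, 5.84% against 5.08% of all tested genes. They gave 14 calls without the count filter, 18 by DESeq2 and 2 to 5 when 1 library was left out. Leaving out 1 library at a time, the log2 fold change ranged from -0.20 to 0.89 for ACTA2, from -0.48 to 0.40 for TAGLN, from -0.19 to 1.13 for MYH11, from -0.28 to 0.047 for KCNJ8, from -0.25 to 0.024 for SRF and from -0.099 to 0.036 for SMAD4, and these signs turned; the cause was not tested. CNN1, SMTN, RGS5, PDGFRB and NOTCH3 kept their sign in every alternative. With the replicate number as a block, 477 genes, 0 members and 7 related genes were called, and TAGLN was at -0.0020; PDLIM3, GUCY1B3, JAG1, CSPG4 and ANGPT1 lost their calls in that edgeR fit (Benjamini-Hochberg adjusted p = 0.0663, 0.0584, 0.0628, 0.0635 and 0.0753). Correlations between the deviations of libraries with the same number were 0.136, -0.0144 and 0.0110, so the numbers were not read as pairs. Scaling by library size alone shifted the median over all genes by -0.020, and RLE scaling by 0.010. The thinnest member values rest on 66 counts.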

Other observations

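The deposited table also assigns rows to the KEGG term for vascular smooth muscle contraction, which was looked at after the results above were known. Of its 67 rows 50 were tested, 2 rose and 0 fell, where 2.73% of all tested genes were called higher and 2.35% lower. The median log2 fold change was -0.12. ACTA2 was the only member in it. PRKCE, a protein kinase C, rose from 7.11 ± 1.56 to 16.1 ± 2.54 CPM (SD, n = 3 each; log2 fold change 1.17 ± 0.21 SE; edgeR, Benjamini-Hochberg adjusted p = 0.0245). PLCB1, a phospholipase C that releases the lipid activator of such kinases, rose from 8.77 ± 3.40 to 27.3 ± 6.72 CPM (SD, n = 3 each; 1.64 ± 0.30 SE; edgeR, Benjamini-Hochberg adjusted p = 0.0271). Each kept its call in 2 of the 6 fits that left out 1 library: PRKCE without Yorkshire replicate 3 or Wei replicate 2, and PLCB1 without Yorkshire replicate 3 or Wei replicate 1. Both genes are also made by other cells of muscle, and these values do not say which cells the transcripts came from.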
